A study of Artemia franciscana with 14 samples.

Results

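Among the 19421 genes counted in embryos of the brine shrimp *Artemia franciscana*, 9 had next to no RNA at 4 days post-fertilization (dpf), although nearly every embryo of 1–2 dpf had some. Levels are given as CPM, the raw count of a gene relative to the total count of its library. The 9 genes were chosen from these levels. They had a mean of at least 20 CPM over the 6 embryos at 1–2 dpf, at least 5 CPM in 5 or more of these embryos, and at most 2 CPM in each of the 6 embryos at 4 dpf. Genes numbered jg8898 to jg9983 were left out, and none of them would have passed. A total of 3917 genes passed the conditions at 1–2 dpf, so that the 9 genes stood beside 3908 others, called the other early genes here. From the highest to the lowest mean level at 1–2 dpf, the 9 were jg10604, jg21776, jg20970, jg1802, jg21732, jg14598, jg22199, jg15982 and jg17062.

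The RNA was taken from single whole wild-type embryos on the ovoviviparous pathway, dissected from females at timed days after fertilization. The libraries are 2 embryos at 1 dpf (male replicate 1 and female replicate 3), 4 embryos at 2 dpf (female replicates 9 and 12, male replicates 2 and 3), 6 embryos at 4 dpf (3 females and 3 males), 1 wild-type adult female and 1 wild-type adult male. Sex was assigned to the embryos by the authors from expressed SNPs on the Z chromosome, in a population that is not isogenic. Embryos gave too little RNA to be quantified, and the adults were set to one RNA amount. The study's methods state that adults were dissected and their germline taken out before RNA isolation, without naming single libraries, so that the adult female library is taken here as tissue without ovaries or oocytes, in which RNA of the germline was not measured. Which embryos share a mother was not given. The tests treat the single embryos as independent, and a difference between mothers could not be told apart from one between days.

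Early animal embryos start out with RNA that the mother placed in the egg. Most of these maternal transcripts are degraded while the genome of the embryo takes over, and other genes are transcribed only briefly in the early embryo before they are shut off. Both kinds of gene would be seen as RNA in an early embryo that is missing from a later one, and the maternal kind is made in the ovary. The counts name the 9 genes by number alone, and none of them has a gene name or function in the sources used here. The counts measure RNA, so that the fall in level is described and not its cause, and whether the genes were switched off was not measured.

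The total count was between 3591905 and 4820308 per library at 1–2 dpf and between 2669131 and 7463397 at 4 dpf. Here 3 reads correspond to at most 1.12 CPM in any embryo at 4 dpf. Reads that were copied from the same molecule by PCR were counted separately. Intervals and floors treat each read as independent, so that for molecules the intervals can be too narrow and the floors too low. They do not cover the spread between animals. Female replicate 12 at 2 dpf stood apart, with reads on 6414 genes against 10045 to 10842 genes in the other 5 embryos at 1–2 dpf. In this embryo, all 9 genes had at least 5 CPM, and 3535 of the 3908 other early genes (90.5%) had at least 5 CPM, against 3868 to 3903 in the other 5 embryos. Without it, the same rule gave 10 genes, of which 8 were shared, with jg22199 lost and jg17445 and jg518 gained. Of the reference genes that the study used for RT-qPCR, jg3163 had 75.7 ± 17.9 CPM at 4 dpf and 91.2 ± 31.2 CPM at 1–2 dpf, and jg15373 had 1325 ± 548 CPM at 4 dpf and 227 ± 96.1 CPM at 1–2 dpf (SD, n = 6 embryos each).

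At 4 dpf, the 9 genes together had 51 reads in the 6 embryos, against 27039 reads in the 6 embryos at 1–2 dpf. Their summed level was at most 3.39 CPM in any embryo at 4 dpf (median 0.968 CPM), and at 1–2 dpf between 264 CPM in female replicate 3 (1 dpf) and 2857 CPM in male replicate 3 (2 dpf), with a median of 676 CPM. Fewer cells of a type and less RNA per cell cannot be told apart in whole embryos. Of the 9 genes, 7 passed the filter on low counts for a test of 4 dpf against 1–2 dpf, and edgeR called all 7 lower at 4 dpf, as it did 3.54% of the 8362 genes tested. The rule chose the genes by this contrast, so that nothing is read from this count. The same thresholds with the stages exchanged gave 16 genes out of the 4194 expressed at 4 dpf (0.381%), against 9 out of the 3917 expressed at 1–2 dpf (0.230%).

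**Figure D1:**
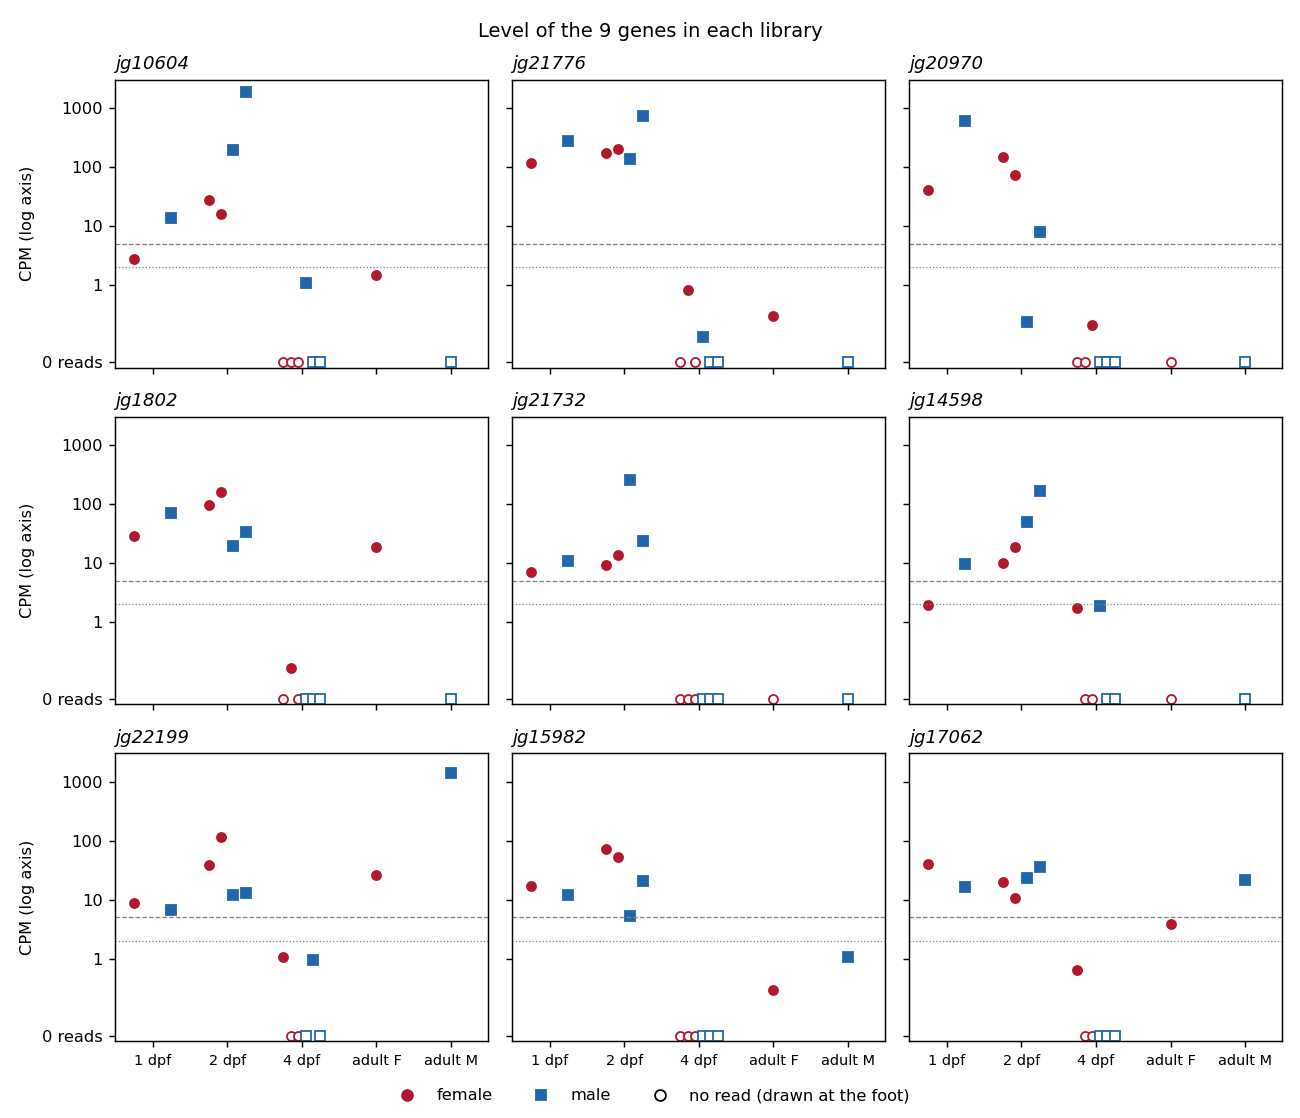
Level of each of the 9 genes in each library, as CPM on a log axis, at 1, 2 and 4 dpf and in the adult female (F) and adult male (M). Each point is 1 library, open points at the foot had no read, the dotted line is at 2 CPM and the dashed line at 5 CPM. All points at 4 dpf lie under 2 CPM, while those at 1–2 dpf are spread widely, in jg20970 between 0.234 and 602 CPM.

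The most abundant of the 9 genes, jg10604, owed its mean of 349 ± 734 CPM at 1–2 dpf (SD, n = 6) to a single embryo. It had 2.78 CPM in female replicate 3 and 13.7 CPM in male replicate 1 at 1 dpf, and at 2 dpf 15.9 and 27.2 CPM in female replicates 12 and 9, 193 CPM in male replicate 2 and 1839 CPM in male replicate 3. Male replicate 3 thus held 87.9% of the summed CPM, and the mean of the other 5 embryos was 50.4 CPM. At 4 dpf, male replicate 2 had 8 reads (1.07 CPM) and the other 5 embryos had none.

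jg21776 was the gene with the highest median (184 CPM) and was high in each of the 6 early embryos. Its level was 272 CPM in male replicate 1 and 117 CPM in female replicate 3 at 1 dpf, and 198, 169, 136 and 722 CPM in female replicates 12 and 9 and male replicates 2 and 3 at 2 dpf. The embryo with the highest level was again male replicate 3, at 6.16 times the level of the lowest embryo. At 4 dpf it had 5 reads in female replicate 10, 1 read in male replicate 2 and none in the other 4.

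jg20970 had the largest ratio between its highest and its lowest embryo, the lowest being a single read, whereas the coefficient of variation was larger in jg10604 (211%) than in jg20970 (158%). Male replicate 1 at 1 dpf had 602 CPM (2243 reads), whereas the level was 0.234 CPM (1 read) in male replicate 2 at 2 dpf, the embryo by which it missed the level of 5 CPM. In between were female replicate 3 at 1 dpf with 40.6 CPM, and female replicates 12 and 9 and male replicate 3 at 2 dpf with 74.4, 150 and 7.88 CPM. The 3 females lay between the males, since both males at 2 dpf were below and the male at 1 dpf was above each of them. A single read was counted in the 6 embryos at 4 dpf.

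jg1802 had 70.1 and 29.0 CPM in male replicate 1 and female replicate 3 at 1 dpf, and at 2 dpf 156 and 97.2 CPM in female replicates 12 and 9 and 19.4 and 33.2 CPM in male replicates 2 and 3. At 2 dpf, both females were thus above both males, whereas at 1 dpf the female was below the male. It also had a single read at 4 dpf.

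jg21732 and jg14598 were low in most early embryos and highest in the males at 2 dpf. For jg21732 this was mainly male replicate 2, which held 79.9% of its summed CPM at 1–2 dpf. jg21732 had 256 CPM in male replicate 2 and 23.9 CPM in male replicate 3 at 2 dpf, but only 6.96 to 13.4 CPM in the other 4 embryos, and no read in any embryo at 4 dpf. Compared with the level of 3 reads in the shallowest library at 4 dpf, it was at least 47.6-fold lower at 4 dpf, or at least 10.7-fold lower when the median at 1–2 dpf is taken in place of the mean. jg14598 had 163 and 49.3 CPM in male replicates 3 and 2, 18.3 and 10.01 CPM in female replicates 12 and 9, and 9.67 and 1.95 CPM in the male and the female at 1 dpf. Of the 9 genes, jg14598 came closest to the limit at 4 dpf, with 14 reads (1.88 CPM) in male replicate 2 and 8 reads (1.70 CPM) in female replicate 7.

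jg22199 and jg15982 were highest in the females at 2 dpf. For jg22199 the level was 115 CPM in female replicate 12 and 38.7 CPM in female replicate 9, and 6.71 to 13.1 CPM in the other 4 embryos. This gene depended on female replicate 12, the embryo with few genes detected, without which its mean at 1–2 dpf was 15.8 CPM. At 4 dpf it had 5 reads each in male replicate 5 and female replicate 7. jg15982 had 53.8 and 72.0 CPM in female replicates 12 and 9, 20.5 and 5.38 CPM in male replicates 3 and 2, and 17.0 and 12.1 CPM in the female and the male at 1 dpf. No read was counted at 4 dpf, at least 26.8-fold lower than the mean at 1–2 dpf by the same floor (16.7-fold with the median).

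jg17062 was the least abundant of the 9 genes and the least variable, with 24.2 ± 11.1 CPM (SD, n = 6) at 1–2 dpf. Its levels ran from 10.9 CPM in female replicate 12 to 39.5 CPM in female replicate 3, with 16.1 CPM in male replicate 1 and 20.01, 23.4 and 35.3 CPM in female replicate 9 and male replicates 2 and 3. At 4 dpf it had 3 reads in female replicate 7 alone.

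**Figure D2:**
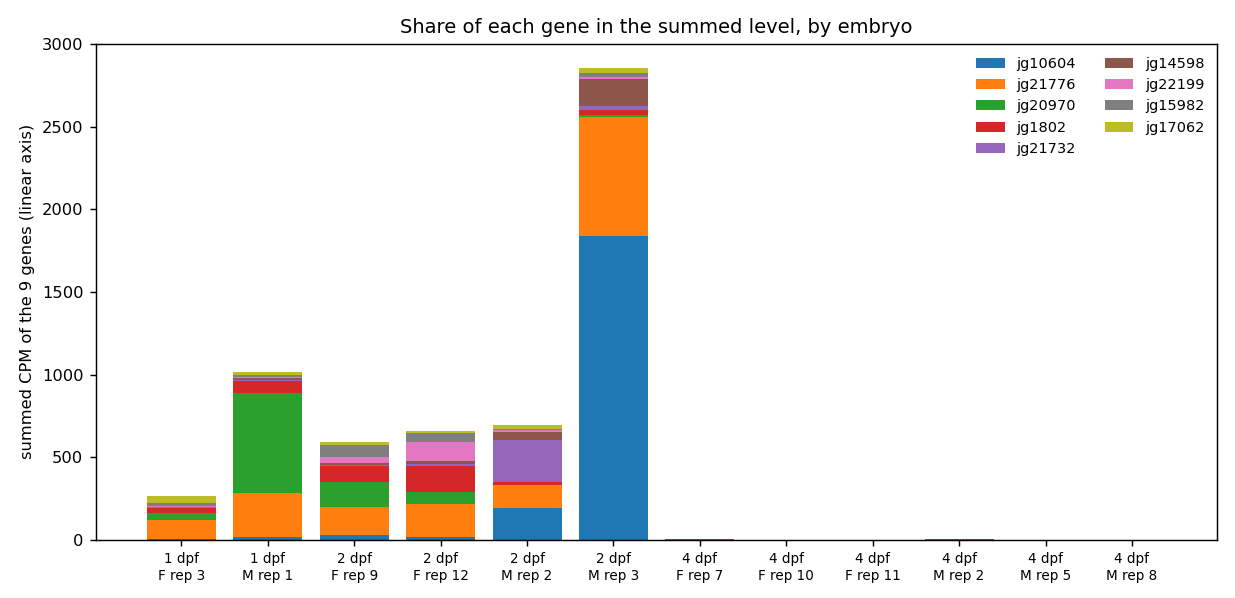
Summed CPM of the 9 genes in each of the 12 embryos (linear axis), with 1 bar per embryo (F, female and M, male) divided by gene. jg10604 fills most of the bar of male replicate 3 at 2 dpf, jg20970 that of male replicate 1 at 1 dpf, and the bars at 4 dpf, at most 3.39 CPM, are hardly visible.

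Which gene was the most abundant of the 9 differed between embryos. It was jg20970 in male replicate 1 at 1 dpf, jg10604 in male replicate 3 and jg21732 in male replicate 2 at 2 dpf, and jg21776 in the 3 females. Male replicate 3 was the highest embryo for 3 of the 9 genes and female replicate 12 for 2, while the other 4 embryos were each the highest for 1 gene. Female replicate 3 at 1 dpf was the lowest embryo for 4 genes. The coefficient of variation over the 6 embryos ranged from 46.0% in jg17062 to 211% in jg10604, with a median of 130%. Over the 3908 other early genes the median was 42.9%, and 0.665% of them had a value at or above the median of the 9. Without female replicate 12, the medians were 105% for the 9 genes and 36.5% for the others. The median of the mean levels was 53.5 CPM for the 9 genes and 60.7 CPM for the others. These are descriptions without a test. In 3 of the 9 genes (jg21732, jg14598 and jg22199), the mean was under 20 CPM without the highest embryo.

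**Figure D3:**
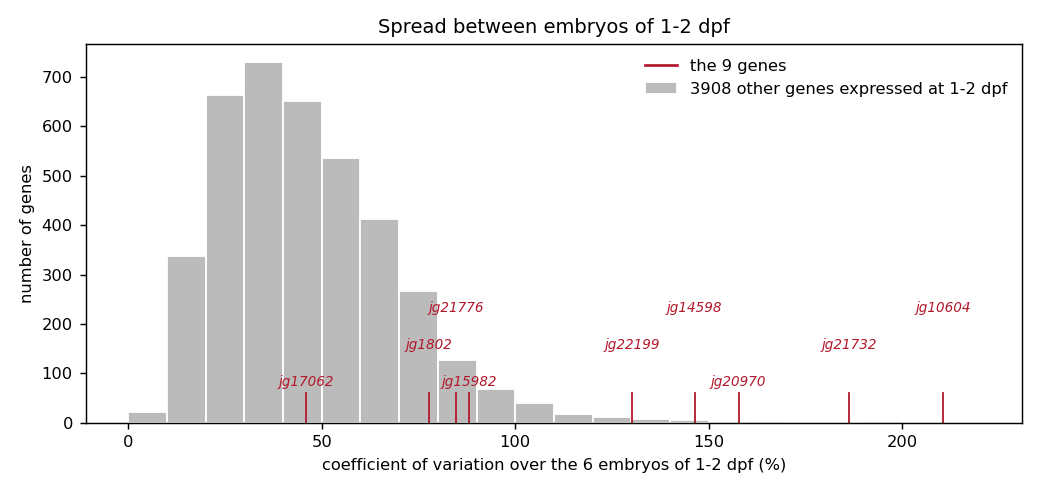
Coefficient of variation of the CPM over the 6 embryos at 1–2 dpf (horizontal axis, percent), for the 9 genes (red lines) and as the number of genes in steps of 10% for the 3908 other early genes (grey). Most red lines lie right of the bulk of the grey bars, and jg17062 lies within it.

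The days within the early stage were then compared. The rule did not use this contrast, but its limit on the mean was taken over the same 6 embryos, so that a gene low at 1 dpf could pass only through high values at 2 dpf. The 4 embryos at 2 dpf were tested against the 2 embryos at 1 dpf in edgeR (quasi-likelihood) over 8977 genes, among them all 9. The 4 embryos at 2 dpf lay above both embryos at 1 dpf in jg10604, jg14598 and jg22199. This is 3 of the 9 genes, against 4.39% of the genes tested and 6.06% of the other early genes, which met the same limits at 1–2 dpf. None of the 9 lay below, against 17.8% of the genes tested and 19.2% of the other early genes. The means at 1 dpf of the 3 genes were under 20 CPM, so that the rule itself required a higher mean at 2 dpf, and nothing is read from the count. Without female replicate 12, the same 3 genes were above, against 7.53% of 8868 genes tested, and none below, against 21.6%.

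jg10604 averaged 519 ± 884 CPM at 2 dpf (SD, n = 4) and 8.24 ± 7.72 CPM at 1 dpf (SD, n = 2). The edgeR estimate for this gene, on the log2 scale, was 6.28 (standard error 2.32). Such estimates use TMM scaling and are not the log2 ratios of the CPM means. jg14598 averaged 60.1 ± 70.6 CPM at 2 dpf and 5.81 ± 5.46 CPM at 1 dpf, and its edgeR estimate was 3.67 (standard error 1.35). jg22199 averaged 44.6 ± 48.4 CPM at 2 dpf and 7.67 ± 1.36 CPM at 1 dpf, and its edgeR estimate was 2.76 (standard error 1.11). Without female replicate 12, this estimate was 1.85. The SD at 2 dpf was thus larger than the mean in each of these 3 genes.

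None of the 9 genes passed the test, with unadjusted p-values of 0.0271, 0.0270 and 0.0375 from edgeR for these 3 genes and an adjusted p-value of 1.00 for each of the 9. Over all genes, edgeR called 0 at the adjusted threshold of 0.05. In simulated data, this fit recovered 25 of 175 genes changed by a log2 fold of 3, and 99 of 173 changed by 5. Before adjustment, 376 genes (4.19%) were under 0.05, among them 3 of the 9 and 5.63% of the other early genes. DESeq2 called 52 genes, of which 36 were higher and 16 lower at 2 dpf. jg10604 was the only one of the 9 among them, with a log2 fold change of 6.21 and an adjusted p = 0.00711 from DESeq2, and its adjusted p-value ranged from 0.00711 to 1 over all alternatives. Without male replicate 3, its edgeR log2 fold change was 3.54.

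The other 6 genes had log2 fold changes of 3.33 (jg21732, standard error 1.52), 1.70 (jg15982, standard error 1.06), 0.96 (jg21776, standard error 0.75), 0.94 (jg1802, standard error 0.87), -0.054 (jg17062, standard error 0.77) and -2.02 (jg20970, standard error 1.63), none past the test. The median of the 9 genes was 1.70, beside -0.063 over all genes tested. The means at 1 dpf of jg21732 (8.85 CPM) and jg15982 (14.5 CPM) were also under 20 CPM. The rule thus required a higher mean at 2 dpf in them too, and nothing is read from this median. For jg20970, the sign rested on male replicate 1 at 1 dpf, and the log2 fold change without this embryo was 0.83.

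**Figure D4:**
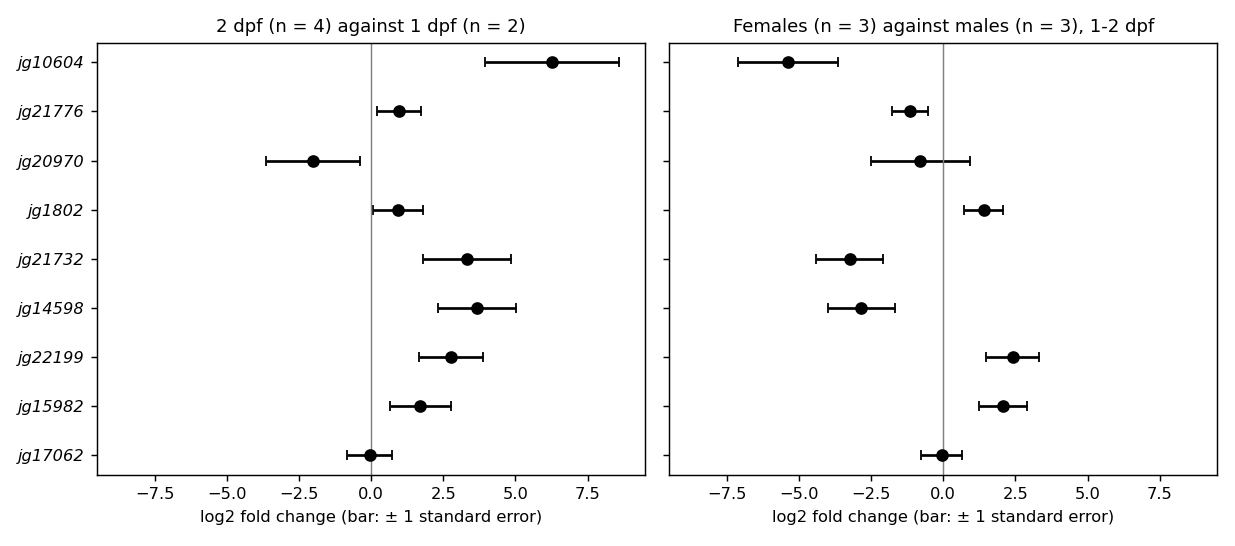
Log2 fold change of the 9 genes in edgeR, at 2 dpf against 1 dpf (left) and in females against males at 1–2 dpf (right), with bars of ± 1 standard error. Values above 0 are higher at 2 dpf (left) or in females (right), and none of the 18 values passed the test with adjustment over all genes.

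Females and males were compared at 1–2 dpf over 8089 genes, again with all 9 among them. None of the 9 had an adjusted p-value under 0.05, and the smallest of them was 0.782 (edgeR). Over all genes, edgeR called 0, and DESeq2 called 64, among them none of the 9. In simulated data, the edgeR fit recovered 59 of 175 genes changed by a log2 fold of 3, and 122 of 161 changed by 5. Before adjustment, 490 genes (6.06%) were under 0.05 in edgeR, including 5 of the 9 and 9.42% of the other early genes. Since the limit on the mean was taken over both sexes, a gene low in one sex could pass only through the other, and nothing is read from this count. These were jg10604 (log2 fold change -5.38, standard error 1.72), jg21732 (-3.25, standard error 1.17) and jg14598 (-2.85, standard error 1.16), which were lower in females, and jg22199 (2.40, standard error 0.93) and jg15982 (2.07, standard error 0.82), which were higher. The 3 females and the 3 males overlapped in each of the 9 genes, while over all genes the females lay above the males in 6.01% and below them in 10.5%, and over the other early genes they lay above in 8.52% and below in 8.09%.

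Within 2 dpf, a comparison added after the values had been seen, the 2 females lay above the 2 males in jg20970, jg1802, jg22199 and jg15982 and below them in jg10604, jg21732, jg14598 and jg17062. Over the 8123 genes tested in these 4 embryos, 19.9% were above and 37.9% below, and of the other early genes 27.3% were above and 34.5% below. The rule's limits were taken over these embryos too. None of the 9 passed the test in this fit, where the smallest adjusted p-value of edgeR among them was 0.179, in jg1802, by 2.24 on the log2 scale with a standard error of 0.46. The range of this adjusted p-value over all fits by sex was 0.179 to 1.00. In jg20970, females were higher by 4.77 on the log2 scale within 2 dpf, whereas the log2 fold change over both days was -0.80.

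The adult libraries, which the rule did not use, were then searched for the 9 genes. Each sex is 1 library without a replicate, of 3342959 counts for the female, where 3 reads are 0.897 CPM, and 1840926 counts for the male, where 3 reads are 1.63 CPM. The female had at least 3 reads of 4 of the 9 genes, beside 78.2% of the other early genes and 46.4% of all 14776 genes with a read in any library. The male had at least 3 reads of 2 of the 9 genes, beside 78.1% of the other early genes and 44.6% of all genes with a read. The median level of the 9 genes was 0.299 CPM in the adult female, beside 22.4 CPM for the other early genes.

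jg1802 and jg10604 had at least 3 reads in the adult female and none in the adult male, and of these jg1802 was well above the floor. It had 61 reads in the adult female, or 18.2 CPM (95% exact Clopper-Pearson interval 13.96 to 23.4 CPM, as for all intervals on adult levels), and 0 reads in the adult male. Its level in the adult female was 11.2 times the level of 3 reads in the adult male, where the interval of 0 reads reached up to 2.00 CPM. The level in the adult female was 0.270 times the mean of the embryos at 1–2 dpf.

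jg22199 was found in both adults and was far more abundant in the male. It had 89 reads in the adult female, 26.6 CPM (21.4 to 32.8 CPM), and 2577 reads in the adult male, 1400 CPM (1346 to 1455 CPM). The level in the female was 52.6-fold lower than in the male (counting interval 42.6 to 65.7), and the log2 ratio of female to male was -5.66 with a pseudocount of 1 CPM. The adult male thus exceeded the highest early embryo, female replicate 12 with 115 CPM. In the early embryos, both females were above both males at 2 dpf. At 1 dpf, the 31 reads in the female (5.86 to 12.3 CPM) and 25 reads in the male (4.34 to 9.91 CPM) had overlapping counting intervals.

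jg17062 had 13 reads in the adult female, 3.89 CPM (2.07 to 6.65 CPM), and 39 reads in the adult male, 21.2 CPM (15.1 to 29.0 CPM). Its level in the adult male lay within the range of the early embryos. jg10604 had 5 reads in the adult female, 1.496 CPM (0.486 to 3.49 CPM), and none in the adult male, where the floor was 1.63 CPM, so that no fold is given. A ratio of at least 2-fold with the pseudocount was found toward the female in 2 of the 9 genes (jg1802 and jg10604), against 18.5% of all genes with a read. Toward the male it was found in 2 (jg22199 and jg17062), against 22.2%. For jg10604, which was under the floor of the male, this rests on the pseudocount of 1 CPM. With a pseudocount of 2 CPM, the ratio was found toward the female in 1 of the 9 genes, against 2548 of the 14776 genes with a read. Toward the male it was again found in 2, against 3098.

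The other 5 genes were at or under the floor in both adults. jg21776 had 1 read in the adult female and none in the male, jg15982 had 1 read in the female and 2 in the male, and jg20970, jg21732 and jg14598 had none in either. Thus 3 of the 9 genes had no read in both adults, beside 367 of the 3908 other early genes (9.39%) and 38.0% of all genes with a read in any library. For 0 reads in the adult female, the interval reached up to 1.10 CPM, so that these genes were not detected at this depth, in tissue described as freed of the germline. jg21776, at 117 to 722 CPM in the early embryos, was at 0.299 CPM in the adult female (0.00757 to 1.67 CPM).

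Members of the group were not neighbours. The nearest pair by gene number, jg21732 and jg21776, was 44 numbers apart, and the other steps between consecutive members were between 423 and 8802 numbers. The counts carry no coordinates. Of the 18 genes directly before and after the 9 in the table, 6 had a mean of at least 5 CPM at 1–2 dpf and 7 at 4 dpf, and 7 had under 1 CPM at both stages. Directly before and after jg1802 in the table, jg1801 and jg1805 had no read in any embryo. Before jg14598, jg14597 had no read in any embryo either. After it, jg14600 averaged 0.156 CPM at 1–2 dpf and 3.72 CPM at 4 dpf. The next row, jg14601, averaged 305 CPM at 1–2 dpf and 311 CPM at 4 dpf. jg21731, next to jg21732, had 256 CPM at 4 dpf and 19.7 CPM at 1–2 dpf on average, the opposite order of the stages.

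Neighbours of 3 members, chosen after their values had been seen, had fewer reads at 4 dpf than at 1–2 dpf. The share of all genes with this order was not counted, so that nothing is read from it. Of the 36 genes within 2 rows of a member, 10 had a mean of at least 5 CPM at 1–2 dpf and 11 at 4 dpf. jg22200, next to jg22199, had a mean of 3.89 CPM at 4 dpf and 32.8 CPM at 1–2 dpf, and was the 1 gene of the 18 with at least 5 CPM at 1–2 dpf and a level more than 4-fold lower at 4 dpf. On the other side, jg22198 had 143 reads in the adult male (77.7 CPM) and none in the adult female or in any embryo. jg15983, next to jg15982, had 0 reads at 4 dpf against 26 reads at 1–2 dpf, and none in the adults. Around jg17062, the genes jg17061, jg17063 and jg17065 had 0 reads each in the 6 embryos at 4 dpf, against 23, 9 and 27 reads in the 6 embryos at 1–2 dpf. Their counts in adults were 0 in the female for each of the 3, and 78, 0 and 30 in the male.

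The genes close to the limits of the rule show how far the number of 9 depends on them. The members with the lowest means were jg17062 (24.2 CPM), jg15982 (30.1 CPM) and jg22199 (32.3 CPM), and the genes just under the limit of 20 CPM were jg21881 (13.4 CPM), jg22079 (12.1 CPM) and jg8553 (11.2 CPM). At 4 dpf, the highest levels inside the limit were those of jg14598 (1.88 CPM), jg10604 (1.07 CPM) and jg22199 (1.06 CPM), and just outside were jg7317 (2.12 CPM), jg2593 (2.25 CPM) and jg12463 (3.64 CPM). jg2593 had a mean of 135 CPM at 1–2 dpf, beside 146 CPM for jg20970. A pair of genes, jg518 and jg17445, passed the rule except that they reached 5 CPM in 4 embryos only. Both were under this level in the 2 females at 2 dpf, jg518 with 3.24 CPM in female replicate 12 and 3.05 CPM in female replicate 9, and jg17445 with no read in female replicate 12 and 1.31 CPM in female replicate 9.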

How the data were processed

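Single embryos and 1 adult per sex were sequenced with a SMART-Seq kit with UMIs. The authors deposited raw counts per gene, made with the Cogent pipeline (version 2.0.1) from all reads: the counts are raw, and copies sharing a UMI were not merged. The genome build by name and the use of strand in counting were not given in the sources used here, so that overlapping genes and near-identical copies cannot be told apart. Columns were assigned to samples by barcode.

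CPM were computed from column totals. Days and sexes were compared in R 4.3.3 with edgeR 4.0.16 (TMM, filterByExpr, quasi-likelihood F test, Benjamini-Hochberg adjustment over all genes tested, threshold 0.05), with the standard error of a log2 fold change taken as its size over the root of F. DESeq2 1.42.0, RLE and upper-quartile factors, no filter, covariates for sex or day, other limits of the rule, other detection limits and pseudocounts, and each embryo left out in turn were the alternatives. The fits of the days and the sexes were tested on simulated data, where they missed many of the changed genes. Genes not called may therefore still differ. Adults were compared without a test. Figures were drawn with matplotlib 3.10.9. The 9 genes and all lists were chosen with earlier results of these data known. Genes to be named were the 10 members with the highest mean at 1–2 dpf (which covers all 9), those with the smallest p between the days, those highest in the adults, the 3 just inside and outside each threshold, and runs of consecutive numbers, of which there were none. Neighbouring genes were chosen after their values had been seen. No sequences are shown, because the counts carry gene numbers only, and the RefSeq gene table of *A. franciscana* holds none of them.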

Additional observations from a re-analysis of the deposited data

Results flagged for a closer look

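Single embryos stood apart in 6 of the 9 genes, by a gap to the next embryo that was large against the range of the group (Dixon's test at the 95% level). Of 22 groups looked at, 11 held such an embryo. Chance flags about 1 in 20 independent groups of normally distributed values. These groups share embryos, hold values that the rule used and are mostly 0 at 4 dpf. Their CPM can also be skewed, as in jg10604 (mean 349 CPM and median 21.6 CPM at 1–2 dpf). The flags are therefore a description. Among the other early genes, an embryo stood apart in 9.75% at 1–2 dpf and in 5.76% at 2 dpf, against 6 and 3 of the 9 genes. At 1–2 dpf, the highest embryo stood apart in jg10604 (1839 CPM in male replicate 3), jg21776 (722 CPM in the same embryo), jg14598 (163 CPM in the same embryo), jg21732 (256 CPM in male replicate 2), jg20970 (602 CPM in male replicate 1) and jg22199 (115 CPM in female replicate 12). Within 2 dpf alone, the same embryos stood apart in jg10604 (1839 CPM), jg21776 (722 CPM) and jg21732 (256 CPM). At 4 dpf, 8 reads of jg10604 in male replicate 2 (1.07 CPM) and 5 reads of jg21776 in female replicate 10 (0.832 CPM) stood apart from embryos with at most 1 read.

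The change between the days had opposite signs in the sexes in 3 of the 9 genes, beside 21.5% of the other early genes. In jg20970 and jg1802, both females at 2 dpf were above the female at 1 dpf and both males below the male, and in jg17062 the order was reversed in both sexes. An interaction of sex and day was fitted with edgeR after these values had been seen, with a positive value for a larger rise in females. It was 8.62 on the log2 scale for jg20970 (standard error 2.34, unadjusted p = 0.0126 from edgeR), 3.43 for jg1802 (standard error 0.87, unadjusted p = 0.00962) and -2.24 for jg17062 (standard error 1.52, unadjusted p = 0.196), with an adjusted p-value of 1.00 for each. Of the 8977 genes, edgeR called 0, and before adjustment 349 were under 0.05, and each sex had 1 embryo at 1 dpf.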

How the results depend on the processing

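The number of genes that passed the rule was 15 with a minimum mean of 10 CPM, 5 with 50 CPM and 18 with up to 5 CPM at 4 dpf, and 9 to 12 when single embryos were left out. It was 9, the same genes, on CPM scaled by TMM. Genes called at 2 dpf against 1 dpf (0) were 52 with DESeq2, 1 with RLE and 1 with upper-quartile factors, 4 without the filter, 3 with all 12 embryos in the fit, and 0 to 1 with an embryo left out. Between the sexes (0), they were 64 with DESeq2, 12 without the filter, 19 within 2 dpf (chosen after seeing the data) and 0 to 12 with an embryo left out, 12 without male replicate 1 at 1 dpf and 2 without female replicate 3 at 1 dpf. The cause of these changes was not tested. Between 4 dpf and 1–2 dpf (669), DESeq2 called 1144, and 489 to 759 were called with an embryo left out. With a limit of 5 CPM, 2 of the 9 genes were found in the adult female in place of 4.

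The sign between the sexes changed in jg20970 with day as a covariate (3.17) and within 2 dpf (4.77), in place of -0.80. With an embryo left out, log2 fold changes of the days lay between -3.32 and 0.83 in jg20970 and between -0.60 and 0.85 in jg17062, and those of the sexes between -1.63 and 4.51 in jg20970 and between -0.50 and 0.36 in jg17062. The other genes kept their sign in both comparisons. DESeq2 gave no p-value for jg21732 between the days. No paired analysis was made, because the replicate numbers label separate single embryos and which embryos share a mother was not given. Depth limits the adults, where the exact 95% interval of 0 reads reached up to 1.10 CPM in the female and 2.00 CPM in the male.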
